A study of Mus musculus with 15 samples.

Results

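The 28 genes described here encode proteins that detect, signal and repair damaged DNA. They were taken from a list of double-strand break, excision, mismatch and crosslink repair genes, chosen with earlier results of these data known. All 28 were found among the 39179 genes of the count tables, and all 28 were among the 14300 genes tested after a filter on low counts. They were measured by RNA sequencing of the submandibular gland, a major salivary gland, of adult male C57BL/6 mice. The 15 libraries fall into 5 groups of 3. IR+Shh, IR+Gli1 and IR+GFP are irradiated glands into which Shh, Gli1 or the gene for green fluorescent protein (GFP) was transferred, IR is irradiated glands of wild type mice, and NT is glands of wild type mice that were not treated. The glands of all 4 irradiated groups were irradiated locally and collected 7 days later. The labels give neither the dose of radiation, the vector, nor the time of gene transfer. The series' title gives transient activation of the Hedgehog pathway in irradiated glands as the subject; Shh is the secreted ligand of that pathway, and Gli1 is a transcription factor at its end.

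Ionising radiation breaks DNA strands. In vertebrate cells a double-strand break is sensed by the Mre11-Rad50-Nbn complex, which activates the kinase Atm. The break is then rejoined directly by end joining, or copied back from the sister chromatid by homologous recombination, which works in S and G2 phase. Single-strand breaks, bulky lesions, mismatches and crosslinks each have a pathway of their own. Most of this machinery is controlled at the level of protein activity, and several members of the recombination and crosslink pathways are transcribed mainly in cycling cells, whereas the adult salivary gland divides slowly.

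Libraries held between 18205941 and 41064723 gene reads. Within every group there was a pair whose counts agree more closely than sampling noise would give. Its mean chi-square per gene was 0.215 to 0.337, against 22.0 to 223 in the other 10 pairs. In these pairs at most 5 genes had more reads in the shallower library, against 1477 to 9279 in the others. Why they agree so closely was not tested. Each such pair was counted as 1 sample, which left n = 2 samples per group. The samples are called by their libraries' numbers: IR+Shh 1-3 and 2, IR+Gli1 1-2 and 3, IR+GFP 1-2 and 3, IR 1-2 and 3, NT 1 and 2-3. Since no label ties the libraries to different animals, the p-values speak only of the spread between these samples, which may be technical. Several samples stood apart. IR+Gli1 3 and IR+GFP 3 held the most reads with more than 1 alignment, 7.53% in IR+Gli1 3 and 8.22% in IR+GFP 3, where the other libraries held 2.89% to 4.79%. The summed level of 5 marker genes of the sublingual gland, which lies beside the submandibular gland, was 30500 CPM in NT 2-3 and 5.31 CPM in NT 1. The 10 most abundant genes took 24.5% and 38.1% of reads in the 2 IR+Gli1 samples, against 45.5% to 53.2% in the others, and the TMM scaling factors were 1.72 and 1.31 in IR+Gli1, against 0.865 to 0.994 elsewhere. Reads of the mouse gene Gli1 were at 0.540 and 0.672 CPM in IR+Gli1, close to the 0.768 and 0.554 CPM of IR+GFP, and at 2.69 and 4.24 CPM in IR+Shh. Mouse Shh had 0 reads in all 15 libraries. The labels do not give the species or sequence of the transferred genes, so these counts do not check the transfer.

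Levels are given as read counts scaled to library size by TMM (CPM), with the standard deviation over n = 2 samples, and log2 fold changes with the standard error of the fit. A gene is said to have risen or fallen where its adjusted p was below 0.05 in edgeR's quasi-likelihood test with Benjamini-Hochberg adjustment over all 14300 genes. In these whole glands, a smaller number of cells of one type and less RNA per cell cannot be told apart.

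The 28 genes spanned a 179-fold range of level per kilobase of exon. Parp1, the sensor of single-strand breaks, was the highest at 8.59 CPM per kb on average, followed by Nbn, a subunit of the break-sensing complex (6.50 CPM per kb), and the checkpoint kinase gene Chek2 (4.75 CPM per kb). The lowest were Pole, the catalytic subunit of a replicative DNA polymerase (0.0480 CPM per kb), Fancd2 (0.0520 CPM per kb) and Rad54l (0.0557 CPM per kb). Fancd2 encodes the protein that is ubiquitinated at DNA crosslinks, and Rad54l a motor protein of strand invasion in recombination. Exon length here is the union of all annotated exons, so genes with long rare isoforms, such as Atr, sit lower on this scale.

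**Figure D1:**
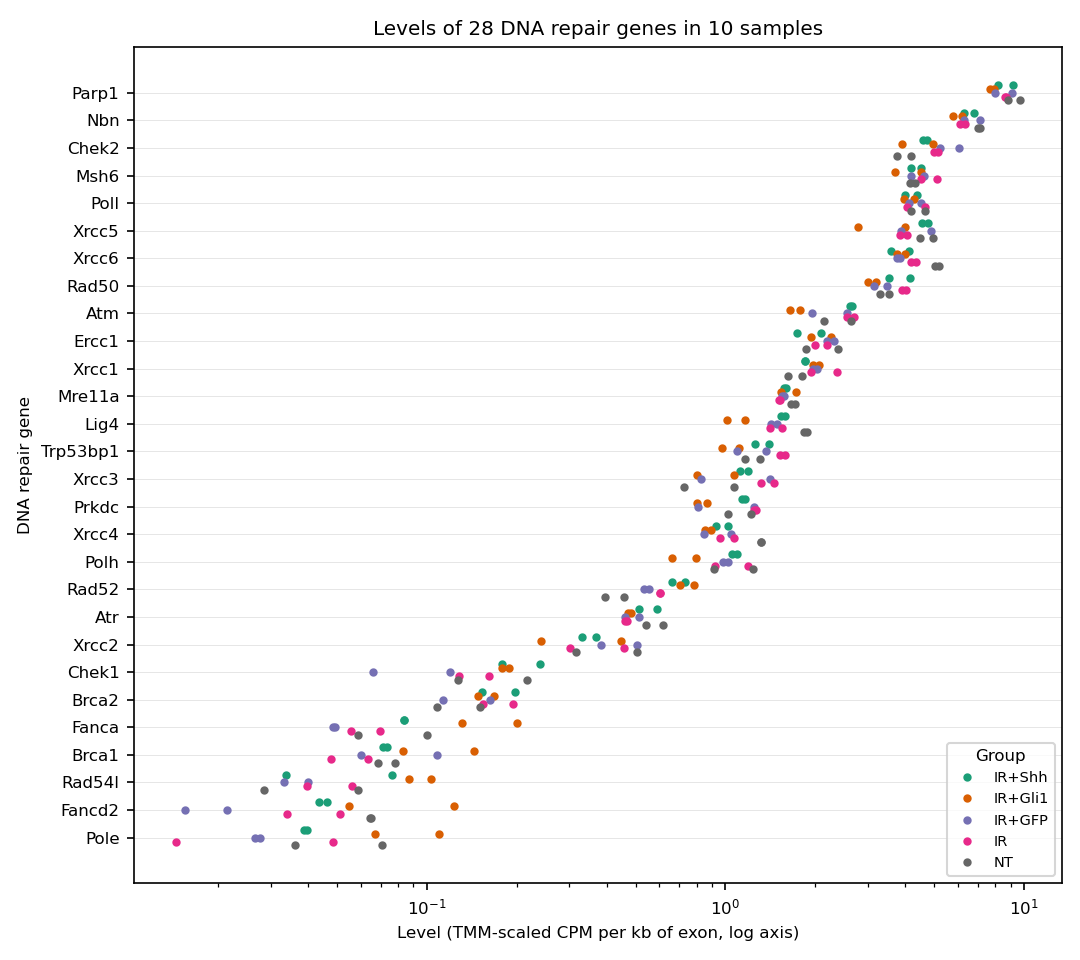
Level of each of the 28 DNA repair genes in the 10 samples, as TMM-scaled CPM per kb of exon on a log axis; each point is 1 sample, coloured by group, and genes run from the highest mean (Parp1, 8.59) to the lowest (Pole, 0.0480). The points of most genes lie close together, and those of the lowest genes spread the most, with an IR+Gli1 sample at the right end of Fanca, Brca1, Rad54l, Fancd2 and Pole.

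The genes divided into a steady majority and a low, variable minority. In 22 genes every sample was at 1 CPM or more, and the highest sample was 1.14 to 2.10 times the lowest. Mre11a, the nuclease of the break-sensing complex, varied least, between 8.98 and 10.2 CPM, followed by Poll, a gap-filling polymerase of end joining, between 9.19 and 10.8 CPM. The other 6 genes (Chek1, Brca1, Rad54l, Fancd2, Fanca and Pole) had at least 1 sample under 1 CPM, and varied 3.0-fold in Brca1 to 7.91-fold in Fancd2. Their fewest reads in a sample ran from 2 in Fancd2 to 10 in Brca1, so that counting error is part of these ratios. In 5 of these 6 the highest sample was IR+Gli1 1-2, and in Chek1 it was IR+Shh 2. With TMM scaling, 12 of the 28 genes had their lowest sample in IR+Gli1 and 8 their highest in NT. The share of all genes was not counted, and the place of the IR+Gli1 samples depends on the scaling, as described further on.

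The first comparison, IR against NT, asks how repair genes stood in the gland 7 days after irradiation. None of the 28 rose or fell. Across all genes 97 passed, which is 0.678% of those tested, with 0.517% higher and 0.161% lower in IR. At an unadjusted p below 0.05 there were 7 of the 28, against 17.5% of all genes, and the smallest adjusted p was 0.234; DESeq2 and limma-voom also called 0, as did the fit without any single sample. The median log2 fold change of the 28 was -0.06, beside -0.02 for all genes.

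Break sensing and signalling differed little in IR. Atm, the kinase that starts the response to double-strand breaks, was at 27.8 and 26.5 CPM in IR, against 27.2 and 22.0 CPM in NT. Trp53bp1, which marks broken ends for joining, was at 21.5 and 22.4 CPM in IR, against 18.4 and 16.4 CPM in NT (log2 fold change 0.34 ± 0.13, adjusted p = 0.244). Its samples did not overlap between the groups, while those of Atm did. Of the checkpoint kinases, Atr, which responds to single-stranded DNA, was at 11 and 10.9 CPM in IR, against 14.6 and 12.8 CPM in NT (-0.32 ± 0.13, adjusted p = 0.237). Chek2, which acts downstream of Atm, was at 15 and 15.4 CPM in IR, against 12.5 and 11.3 CPM in NT (0.35 ± 0.14, adjusted p = 0.239). Both lay apart from NT, in opposite directions, and neither passed. Samples did not overlap between IR and NT for 9 of the 28 genes upward and 10 downward, beside 23.9% and 27.3% of all genes.

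In all 8 irradiated samples Lig4, Xrcc4 and Xrcc6 lay below NT, and Rad52 and Xrcc1 above it, in shares of the 28 near those of all genes. Lig4, the ligase that seals the ends, was at 7.98 and 8.22 CPM in IR+Shh, 6.05 and 5.25 CPM in the IR+Gli1 samples, 7.76 and 7.38 CPM in IR+GFP, 7.34 and 8.06 CPM in IR, against 9.80 and 9.54 CPM in NT. Its partner Xrcc4 was at 3.90 and 4.28 CPM in IR+Shh, 3.60 and 3.75 CPM in the IR+Gli1 samples, 3.58 and 4.37 CPM in IR+GFP, 4.04 and 4.49 CPM in IR, against 5.52 and 5.58 CPM in NT. Xrcc6, the Ku70 subunit of the ring that binds broken ends, was at 18.4 and 16.0 CPM in IR+Shh, 17.8 and 16.8 CPM in the IR+Gli1 samples, 17.2 and 16.7 CPM in IR+GFP, 19.4 and 18.8 CPM in IR, against 22.5 and 23.3 CPM in NT. In these 3 genes all 8 irradiated samples lay below both NT samples, which was so for 9.3% of all genes. Both Rad52, a recombination mediator, and Xrcc1, the scaffold of single-strand break repair, had all 8 irradiated samples above both NT samples, which was so for 8.59% of all genes. Rad52 was at 4.20 and 3.80 CPM in IR+Shh, 4.50 and 4.07 CPM in the IR+Gli1 samples, 3.07 and 3.20 CPM in IR+GFP, 3.47 and 3.46 CPM in IR, against 2.28 and 2.64 CPM in NT. Xrcc1 was at 10.7 and 10.8 CPM in IR+Shh, 11.9 and 11.5 CPM in the IR+Gli1 samples, 11.5 and 11.8 CPM in IR+GFP, 11.3 and 13.8 CPM in IR, against 9.46 and 10.6 CPM in NT. NT 1 was the lower NT sample in both genes. With levels scaled to total gene reads instead of by TMM, 0 of the 28 genes had all irradiated samples below NT (1.53% of all genes), and Rad52, Xrcc1 and Chek2 had them all above (11.8%). The other end-joining genes overlapped with NT in at least 1 irradiated group: Xrcc5 (Ku80), Prkdc, the kinase that Ku recruits, and Poll.

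**Figure D2:**
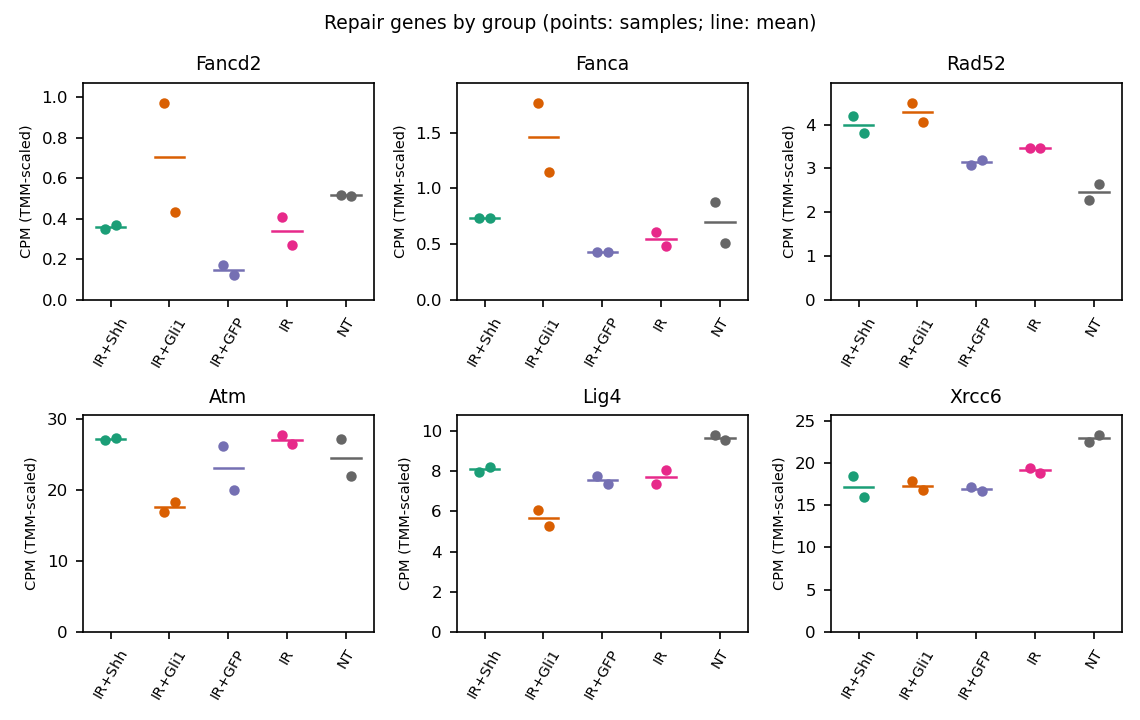
Levels of 6 repair genes in TMM-scaled CPM by group; each point is 1 sample and each line the mean of 2. Fancd2 and Fanca are lowest in IR+GFP and highest in IR+Gli1, Rad52 is lowest in NT, Atm is lowest in IR+Gli1, and Lig4 and Xrcc6 are highest in NT.

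The comparisons of IR+Gli1, IR+GFP and IR+Shh with NT share the NT samples with the one above, and their values are set side by side only. In IR+Gli1 against NT, 1 of the 28 genes rose and 4 fell, 3 of them end-joining genes, while 12.3% of all genes rose and 11.4% fell (23.7% in either direction). At an unadjusted p below 0.05 there were 11 of the 28, against 37.8% of all genes. Lig4 fell to 5.65 ± 0.565 CPM in IR+Gli1, against 9.67 ± 0.181 CPM in NT (log2 fold change -0.77 ± 0.14, 1.70-fold lower, adjusted p = 0.00463). Xrcc6 fell (17.3 ± 0.713 CPM in IR+Gli1, against 22.9 ± 0.560 CPM in NT; -0.40 ± 0.10, adjusted p = 0.0211), as did Xrcc4 (3.68 ± 0.106 CPM in IR+Gli1, against 5.55 ± 0.0410 CPM in NT; -0.59 ± 0.18, adjusted p = 0.0389). The other 3 end-joining genes had log2 fold changes of -0.49 ± 0.18 (Xrcc5), -0.43 ± 0.18 (Prkdc) and -0.10 ± 0.13 (Poll), and did not pass. Atm fell as well, to 17.7 ± 0.911 CPM in IR+Gli1, against 24.6 ± 3.65 CPM in NT (-0.48 ± 0.14, adjusted p = 0.0390). Rad52 rose 1.75-fold, to 4.29 ± 0.307 CPM in IR+Gli1, against 2.46 ± 0.260 CPM in NT (0.81 ± 0.19, adjusted p = 0.0150).

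These calls differ in how far they hold. In every comparison with calls, most fits without 1 sample also called fewer of all genes. A call lost in this way, here and further on, need not be particular to its gene. Lig4 passed whichever single sample was left out. Rad52 was lost without NT 1 (adjusted p = 0.0777) or IR+Gli1 1-2 (0.0672). Xrcc6 was lost without NT 2-3 (0.0689), IR+Gli1 1-2 (0.0525) or IR+Gli1 3 (0.0593). Atm was lost without any 1 sample of IR, IR+Gli1 or IR+Shh, or without NT 1 (0.0544 to 0.197), and Xrcc4 likewise, and also without NT 2-3 (0.0625 to 0.122). With total-count scaling none of the 4 lower genes was called lower, and other steady genes turned as well, which is described further on.

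In IR+GFP against NT and in IR+Shh against NT none of the 28 rose or fell, while 0.741% of all genes passed in IR+GFP (0.622% higher, 0.119% lower) and 2.26% in IR+Shh (1.36% higher, 0.902% lower). DESeq2 and limma-voom also called 0 in both. In IR+GFP, 5 of the 28 had an unadjusted p below 0.05, against 17.1% of all genes, with the smallest adjusted p for Xrcc6 (17.0 ± 0.323 CPM in IR+GFP, against 22.9 ± 0.560 CPM in NT; log2 fold change -0.43 ± 0.10, adjusted p = 0.109). In IR+Shh there were 3, against 20.8% of all genes: Xrcc6 (17.2 ± 1.68 CPM in IR+Shh; -0.41 ± 0.10, adjusted p = 0.0699), Rad52 (4.0 ± 0.288 CPM in IR+Shh; 0.70 ± 0.19, adjusted p = 0.0875) and Xrcc4 (4.09 ± 0.265 CPM in IR+Shh; -0.44 ± 0.18, adjusted p = 0.207). Fancd2 had the largest fold change in IR+GFP against NT, at 0.171 and 0.123 CPM in IR+GFP, against 0.516 and 0.514 CPM in NT (-1.75 ± 0.59, adjusted p = 0.198). The largest difference in IR+Shh against NT was that of Rad52.

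IR+Gli1 against IR+GFP compares 2 gene transfers in irradiated glands. Of the 28 genes 2 rose, both of the Fanconi anaemia pathway of crosslink repair, and 0 fell, while 8.23% of all genes rose and 5.71% fell (13.9% in either direction). Fancd2 had 54 reads in IR+Gli1 1-2 and 11 in IR+Gli1 3, against 4 in IR+GFP 1-2 and 2 in IR+GFP 3. As CPM it was at 0.973 and 0.435 in IR+Gli1, against 0.171 and 0.123 in IR+GFP (log2 fold change 2.24 ± 0.57, adjusted p = 0.0300). Fanca, a subunit of the core complex that ubiquitinates Fancd2, had 98 and 29 reads in IR+Gli1, against 10 and 7 in IR+GFP. As CPM it was at 1.77 and 1.15 in IR+Gli1, against 0.426 and 0.431 in IR+GFP (1.77 ± 0.41, adjusted p = 0.0223). In both genes the IR+Gli1 samples lay above both IR+GFP samples, and IR+Gli1 1-2 was the highest of all 10 samples. Of the other groups, Fanca was at 0.737 and 0.737 CPM in IR+Shh, 0.612 and 0.487 CPM in IR and 0.880 and 0.514 CPM in NT, and Fancd2 at 0.347 and 0.369 CPM in IR+Shh, 0.408 and 0.270 CPM in IR and 0.516 and 0.514 CPM in NT. IR+GFP was thus the lowest group in both genes, and the IR+Gli1 samples lay on either side of NT in Fancd2 (0.49 ± 0.46 against NT, adjusted p = 0.467) and above it in Fanca (1.06 ± 0.37, adjusted p = 0.0678). DESeq2 called neither gene (adjusted p = 0.117 and 0.0618). Fanca was lost without either IR+GFP sample or without IR+Gli1 1-2 (0.0882 to 0.163), and Fancd2 also without any 1 sample of IR or IR+Shh (0.0545 to 0.271).

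Other low genes of recombination and replication lay in the same direction without passing. Rad54l was at 0.793 and 0.672 CPM in IR+Gli1, against 0.256 and 0.308 CPM in IR+GFP (log2 fold change 1.39 ± 0.55, adjusted p = 0.128). Pole was at 1.22 and 0.751 CPM in IR+Gli1, against 0.299 and 0.308 CPM in IR+GFP (1.71 ± 0.59, adjusted p = 0.0832). Chek1, the kinase that guards replication forks downstream of Atr, was at 0.829 and 0.869 CPM in IR+Gli1, against 0.554 and 0.308 CPM in IR+GFP (0.93 ± 0.44, adjusted p = 0.192). The samples of these 3 genes did not overlap, whereas those of Brca1, the recombination and checkpoint scaffold, did (1.22 and 0.711 CPM in IR+Gli1, against 0.512 and 0.923 CPM in IR+GFP). The low-count filter asked for at least 2 samples above its limit. That limit of 0.368 CPM per total reads was passed by both samples of Rad54l only in IR+Gli1, of Pole only in IR+Gli1 and IR+Shh, and of Fancd2 only in IR+Gli1 and NT. Rad54l also passed it in 1 sample each of IR+Shh, IR and NT.

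Of the 22 steadier genes Rad52 lay wholly above IR+GFP, and Nbn, Atm, Chek2, Lig4, Parp1 and Polh wholly below it. Rad52 was at 4.50 and 4.07 CPM in IR+Gli1, against 3.07 and 3.20 CPM in IR+GFP (log2 fold change 0.45 ± 0.19, adjusted p = 0.147). Atm was at 17.0 and 18.3 CPM in IR+Gli1, against 26.3 and 20.1 CPM in IR+GFP (-0.40 ± 0.15, adjusted p = 0.101). Lig4 was at 6.05 and 5.25 CPM in IR+Gli1, against 7.76 and 7.38 CPM in IR+GFP (-0.42 ± 0.14, adjusted p = 0.0782). Polh, the translesion polymerase that copies past ultraviolet lesions, was at 4.76 and 3.95 CPM in IR+Gli1, against 6.10 and 5.84 CPM in IR+GFP (-0.45 ± 0.21, adjusted p = 0.181). None of these 4 passed. Msh6, a mismatch sensor (-0.10 ± 0.13), Ercc1, a subunit of the nuclease that cuts beside bulky lesions (-0.10 ± 0.18), and Xrcc1 (0.01 ± 0.13) differed by less than their errors. The median of the 28 was -0.10, beside 0.01 for all genes, and 8 of the 28 had an unadjusted p below 0.05, against 29.5% of all genes. In all, 6 of the 28 lay wholly above IR+GFP and 6 wholly below, beside 28.9% and 27.3% of all genes.

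**Figure D3:**
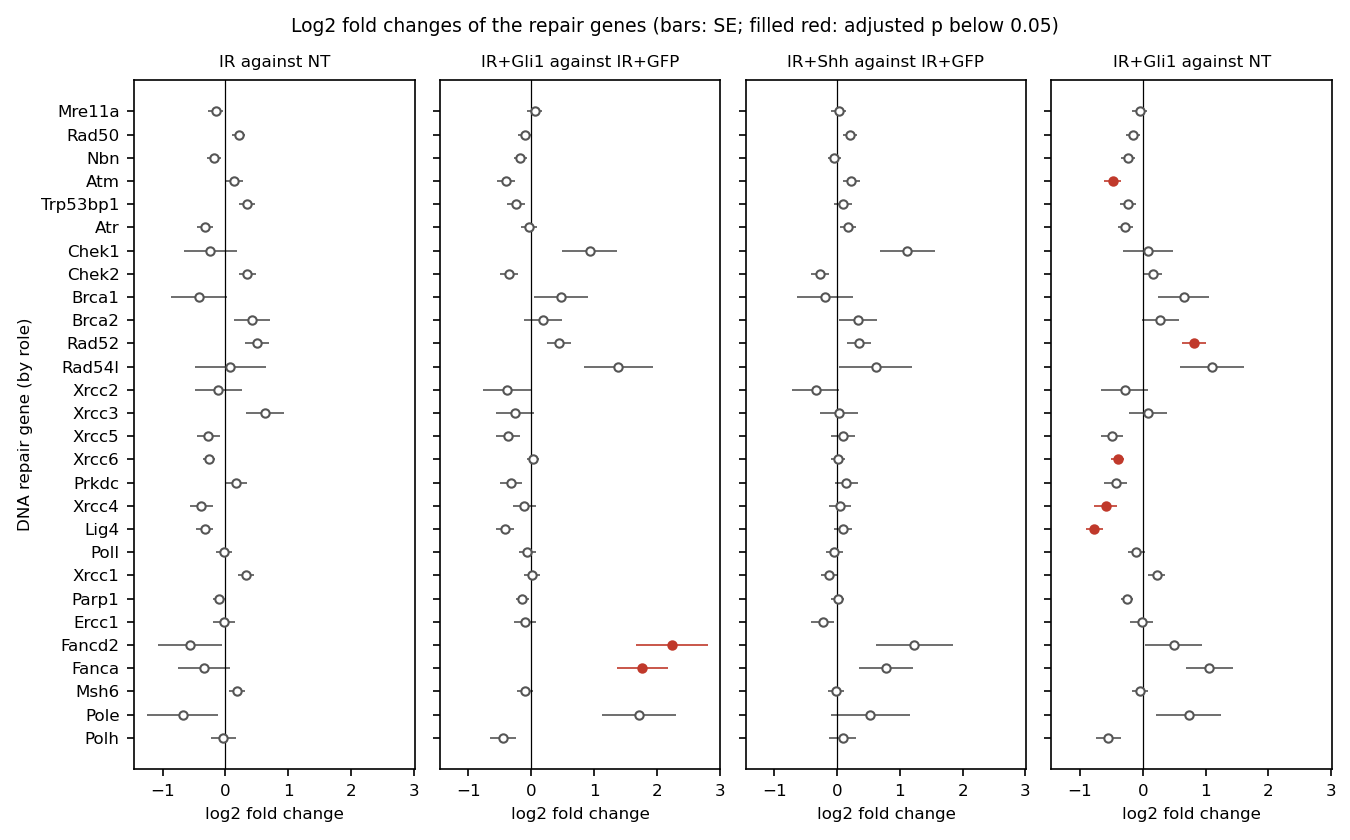
Log2 fold changes of the 28 repair genes, ordered by role, in IR against NT, IR+Gli1 against IR+GFP, IR+Shh against IR+GFP and IR+Gli1 against NT; bars are standard errors of the fit and filled red points passed. Red points are Fancd2 and Fanca (2.24 and 1.77) in IR+Gli1 against IR+GFP, and Rad52, Lig4, Xrcc6, Xrcc4 and Atm in IR+Gli1 against NT.

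The promoters of the 5 genes with the smallest p in IR+Gli1 against IR+GFP, among those with a promoter in the table used, are shown to set genes that lay higher in IR+Gli1 beside genes that lay lower. They are from RefSeq (GRCm38.p6), whose table held promoters of 21 of the 28 genes, not of Fancd2 and Pole among others, and run from 250 bases before the transcription start to 50 after it, 5′ to 3′ on the strand of the gene. Capitals mark CCAAT, the letters bound by NF-Y, on either strand, and in Chek2 also the letters of an E2F site. E2F letters were searched as TTT, then a pair of letters each C or G, then CGC, on both strands. The first pair lay higher in IR+Gli1 and the other 3 lower.

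Fanca promoter, chr8:123318527-123318826, minus strand: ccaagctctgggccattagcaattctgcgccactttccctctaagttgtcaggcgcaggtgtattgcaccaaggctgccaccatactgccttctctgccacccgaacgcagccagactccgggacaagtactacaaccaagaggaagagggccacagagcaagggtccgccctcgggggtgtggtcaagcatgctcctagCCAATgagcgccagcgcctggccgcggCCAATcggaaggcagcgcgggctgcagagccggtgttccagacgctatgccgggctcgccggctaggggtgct

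Rad54l promoter, chr4:116123640-116123939, minus strand: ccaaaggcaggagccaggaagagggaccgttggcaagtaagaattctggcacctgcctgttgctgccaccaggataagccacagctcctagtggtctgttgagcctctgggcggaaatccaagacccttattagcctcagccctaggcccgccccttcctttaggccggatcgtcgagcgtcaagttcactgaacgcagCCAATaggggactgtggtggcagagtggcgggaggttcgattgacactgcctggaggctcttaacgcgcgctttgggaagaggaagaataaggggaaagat

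Lig4 promoter, chr8:9977631-9977930, minus strand: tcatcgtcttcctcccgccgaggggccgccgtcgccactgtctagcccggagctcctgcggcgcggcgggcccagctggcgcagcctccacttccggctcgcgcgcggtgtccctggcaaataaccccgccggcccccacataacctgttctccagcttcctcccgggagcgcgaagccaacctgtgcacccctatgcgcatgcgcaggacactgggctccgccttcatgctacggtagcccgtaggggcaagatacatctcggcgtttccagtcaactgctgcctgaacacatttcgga

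Atm promoter, chr9:53536622-53536921, minus strand: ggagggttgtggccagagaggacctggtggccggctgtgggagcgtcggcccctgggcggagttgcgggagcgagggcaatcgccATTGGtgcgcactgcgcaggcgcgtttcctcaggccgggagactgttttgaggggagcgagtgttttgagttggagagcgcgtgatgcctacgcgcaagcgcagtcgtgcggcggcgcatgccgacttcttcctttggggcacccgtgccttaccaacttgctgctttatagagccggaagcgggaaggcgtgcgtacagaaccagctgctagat

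Chek2 promoter, chr5:110839733-110840032, plus strand: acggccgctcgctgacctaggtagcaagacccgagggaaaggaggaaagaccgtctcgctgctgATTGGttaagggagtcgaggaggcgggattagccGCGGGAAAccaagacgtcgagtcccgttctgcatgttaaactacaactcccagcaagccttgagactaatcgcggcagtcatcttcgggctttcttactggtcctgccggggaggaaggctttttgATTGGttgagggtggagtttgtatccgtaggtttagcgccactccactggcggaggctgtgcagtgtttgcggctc

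CCAAT stood 50 and 23 bases before the start of Fanca and 51 before that of Rad54l, in the forward direction in both genes. In Atm and Chek2 it stood on the reverse strand, 165 bases before the start in Atm and 186 and 26 before it in Chek2, and the Lig4 promoter held neither CCAAT nor E2F letters. E2F letters stood on the reverse strand 152 bases before the start of Chek2. The promoter of Rad52, which had the next smallest p and lay higher in IR+Gli1 (log2 fold change 0.45), held neither. Over the 23 promoters of the 21 genes, 4 held E2F letters (17.4%, in Chek2, Msh6, Brca2 and Xrcc6), beside 2.26% of the 32851 promoters of the table and 3.68% of the 13786 promoters of genes tested. CCAAT stood in 12 of the 23 (52.2%), beside 37.4% of all promoters and 37.1% of those of genes tested.

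IR+Shh against IR+GFP gave no change in the 28 genes, and none in any of the 14300 (0.0%). At an unadjusted p below 0.05 there was 1 of the 28, Chek1, and 6.1% of all genes, and DESeq2 and limma-voom called 0 of the 28. Chek1 was at 0.824 and 1.11 CPM in IR+Shh, against 0.554 and 0.308 CPM in IR+GFP (log2 fold change 1.12 ± 0.44, adjusted p = 0.808). Fancd2 was at 0.347 and 0.369 CPM in IR+Shh, against 0.171 and 0.123 CPM in IR+GFP (1.23 ± 0.61, adjusted p = 0.822). Both lay wholly above IR+GFP, on 8 and 10 reads of Fancd2 in IR+Shh against 4 and 2 in IR+GFP. In IR+GFP against IR, which asks what the transfer of a marker gene did, none of the 28 and none of the 14300 passed (0.0%) either. There 1 of the 28 had an unadjusted p below 0.05, against 2.08% of all genes. It was Trp53bp1, at 19.4 and 15.5 CPM in IR+GFP, against 21.5 and 22.4 CPM in IR (-0.33 ± 0.14, adjusted p = 1.0).

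IR+Shh against IR+Gli1 sets the 2 Hedgehog genes beside each other. Atm was the 1 gene of the 28 that rose, at 27.1 and 27.4 CPM in IR+Shh, against 17.0 and 18.3 CPM in IR+Gli1 (log2 fold change 0.63 ± 0.14, 1.54-fold, adjusted p = 0.0341). None fell, while 2.76% of all genes rose and 4.99% fell (7.76% in either direction). At an unadjusted p below 0.05 there were 8 of the 28, against 26.4% of all genes. Atm in IR+Shh lay within the range of IR (27.8 and 26.5 CPM), and the low values were those of IR+Gli1. Lig4 followed at 7.98 and 8.22 CPM in IR+Shh, against 6.05 and 5.25 CPM in IR+Gli1 (0.51 ± 0.14, adjusted p = 0.0527). Of the low genes, Chek1 lay slightly higher in IR+Shh (0.19), and the others lay the other way without passing. These were Fanca with -0.99 ± 0.38 (adjusted p = 0.136), Fancd2 with -1.01 ± 0.48 (0.218) and Pole with -1.19 ± 0.54 (0.199). Rad54l was at -0.77 and Brca1 at -0.67. The call of Atm was lost without either sample of IR or of IR+Shh, or without IR+Gli1 1-2 (0.0676 to 0.183), and with total-count scaling its log2 fold change was -0.01 (adjusted p = 0.952).

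The direction of the steady genes in IR+Gli1 depended on the scaling. TMM assumes that most genes do not differ, and it gave the IR+Gli1 samples the factors named above. With total-count scaling, the median of all genes was 0.79 in IR+Gli1 against IR+GFP, 0.79 in IR+Gli1 against NT and -0.67 in IR+Shh against IR+Gli1. On that scale 20 of the 28 rose and 0 fell in IR+Gli1 against IR+GFP (67.6% and 0.622% of all genes), 19 rose and 0 fell in IR+Gli1 against NT (64.7% and 1.58%), and 0 rose and 15 fell in IR+Shh against IR+Gli1 (0.587% and 56.0%). Relative to the median of all genes on that scale, the median of the 28 was -0.09, -0.10 and 0.14 in these comparisons. Fancd2 (3.09) and Fanca (2.60) were above the shifted median in IR+Gli1 against IR+GFP. Atm (0.39), Lig4 (0.39) and Polh (0.36) were below it but above 0, so that their lower values with TMM hold only relative to the bulk of genes. In IR+Gli1 against NT, total-count scaling gave 0.28 for Atm, 0.36 for Xrcc6, 0.16 for Xrcc4 and 0.00 for Lig4, none of which passed, and 1.57 for Rad52, which did (adjusted p = 0.000435).

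**Figure D4:**
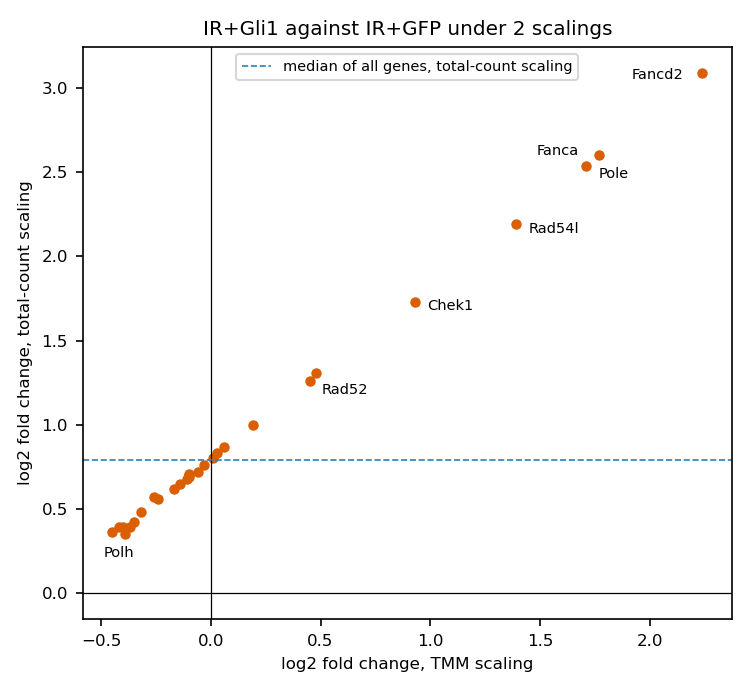
Log2 fold change of each of the 28 repair genes in IR+Gli1 against IR+GFP with TMM scaling (horizontal) and total-count scaling (vertical); the dashed line is the median of all genes with total-count scaling, 0.79. The points run from Polh and Xrcc2 at the lower left to Fancd2 at the upper right, and all lie above 0 on the vertical axis.

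Summed levels of marker genes of several cell types also differed between the groups, which does not tell cell number from RNA per cell. The summed level of 12 T and NK cell markers was 34.4 and 83.6 CPM in the IR+Gli1 samples, against 2.81 and 7.13 CPM in IR+GFP and 5.29 and 5.40 CPM in NT. That of 8 monocyte and neutrophil markers was 49.8 and 179 CPM in IR+Gli1, with at most 1 marker at 0, against 3.41 and 6.77 CPM in IR+GFP, with 4 markers at 0. That of 10 macrophage markers was 242 and 252 CPM in IR+Gli1, against 85.8 and 124 CPM in IR+GFP. That of 9 genes of granular convoluted tubule cells, the hormone-making duct cells of the male gland, was 18500 and 43400 CPM in IR+Gli1, against 107000 and 118000 CPM in IR+GFP. Other sums overlapped between the 2 groups. That of 6 fibroblast markers was 147 and 196 CPM in IR+Gli1, against 162 and 214 CPM in IR+GFP. That of 9 acinar genes was 13500 and 45700 CPM in IR+Gli1, against 33400 and 55600 CPM in IR+GFP. The part of the differences in marker levels in the values of Fancd2, Fanca, Rad54l and Pole was not tested.

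A minority of cell cycle genes rose in the same comparison, in which 8.23% of all genes rose. Of 22 S phase genes, 6 rose in IR+Gli1 against IR+GFP (Mcm3, Mcm4, Mcm5, Mcm6, Rrm2 and Prim1) and 0 fell, with a median of 0.66. Mcm6, a subunit of the replicative helicase, was at 9.66 ± 1.48 CPM in IR+Gli1, against 3.97 ± 0.910 CPM in IR+GFP (log2 fold change 1.30 ± 0.21, adjusted p = 0.00606). Of 20 mitosis genes 17 were tested, of which 4 rose (Top2a, Ccnb2, Kif11 and Tpx2), with a median of 1.41. Top2a, which untangles chromosomes, was at 3.21 ± 1.52 CPM in IR+Gli1, against 0.689 ± 0.0696 CPM in IR+GFP (2.24 ± 0.38, adjusted p = 0.00764). The summed level of the 20 mitosis genes was 18.1 and 30.0 CPM in IR+Gli1, against 8.61 and 11.6 CPM in IR+GFP; it was 18.2 and 23.7 CPM in IR+Shh, 14.8 and 18.6 CPM in IR and 19.5 and 19.9 CPM in NT. IR+GFP was thus the lowest group, as it was by its mean in Fancd2, Fanca, Rad54l, Pole and Chek1. Against NT, 4 S phase genes rose in IR+Gli1 (Mcm3, Mcm6, Mcm7 and Cdt1) and no mitosis gene passed, where 12.3% of all genes rose. The lists were compared by counts only, and the part of cycling cells in the values of the repair genes was not tested.

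Wider lists of the same pathways hold 95 further repair genes, of which 90 were tested. These lists, like those of p53, S phase and mitosis genes, were chosen with earlier results of these data known. In IR against NT 2 of the 90 rose and 0 fell, beside 0.517% and 0.161% of all genes. Polk, a translesion polymerase that copies past bulky damage, was at 15.5 and 15.8 CPM in IR, against 6.64 and 5.87 CPM in NT (log2 fold change 1.32 ± 0.15, adjusted p = 0.00605). Xpc, which recognises lesions in nucleotide excision repair, was at 28.8 and 24.8 CPM in IR, against 16.3 and 16.8 CPM in NT (0.70 ± 0.10, adjusted p = 0.0226). In both genes the IR samples lay wholly above NT, as they did in 23.9% of all genes. Rev1, the scaffold of translesion synthesis, was at 11.2 and 12.2 CPM in IR, against 5.34 and 5.51 CPM in NT (1.11 ± 0.22, adjusted p = 0.0639), and Ercc5, which makes one of the cuts of excision repair, at 17.3 and 16.0 CPM in IR, against 12.1 and 11.5 CPM in NT (0.50 ± 0.12, adjusted p = 0.0998). The call of Polk was lost without NT 2-3 (0.0622) or either IR sample (0.0604 and 0.0712), and that of Xpc without NT 2-3 (0.0896), either IR sample (0.248 and 0.0920) or either IR+Shh sample (0.0661 and 0.0569).

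The same genes stood above NT in the gene transfer groups, which share the NT samples. Polk was at 14.4 and 13.1 CPM in IR+Shh, 19.6 and 15.2 CPM in the IR+Gli1 samples, 14 and 14.6 CPM in IR+GFP, and it rose against NT in each (log2 fold changes 1.13 ± 0.15, 1.48 ± 0.15 and 1.19 ± 0.15). Xpc rose in each as well, with adjusted p of 0.0499 in IR+Shh, 0.00357 in IR+Gli1 and 0.0280 in IR+GFP. Rev1 rose against NT in IR+Shh (1.13 ± 0.22, adjusted p = 0.0394) and IR+Gli1 (1.07 ± 0.22, adjusted p = 0.00864). Without NT 2-3, or without either sample of the transfer group, Polk was lost in IR+Shh (0.0566 to 0.0969) and IR+GFP (0.0623 to 0.0822). Xpc in IR+Shh was lost without any 1 sample outside IR+Gli1 (0.0759 to 0.272), and in IR+GFP without NT 2-3 or any 1 sample of IR, IR+GFP or IR+Shh (0.0509 to 0.163). Rev1 in IR+Shh was lost without any 1 sample outside IR+Gli1 (0.0518 to 0.227). With total-count scaling Xpc was lost in IR+Shh (0.119), IR+GFP (0.182) and IR (0.143), and Rev1 in IR+Shh (0.0502). With limma-voom Xpc was lost in IR+Shh (0.0629) and IR+GFP (0.0533), and Rev1 in IR+Shh (0.0688). Polh and Ercc1, the members of the 28 that act in the same pathways, had no irradiated group in which they passed. Of 11 genes of the p53 response, which radiation is known to induce, 8 rose in IR and 0 fell; Eda2r, a p53 target, was one of them (22.3 ± 2.77 CPM in IR, against 2.59 ± 0.239 CPM in NT; 3.09 ± 0.18, adjusted p = 0.000132). Their summed level was 629 and 674 CPM in IR, against 247 and 260 CPM in NT.

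**Figure D5:**
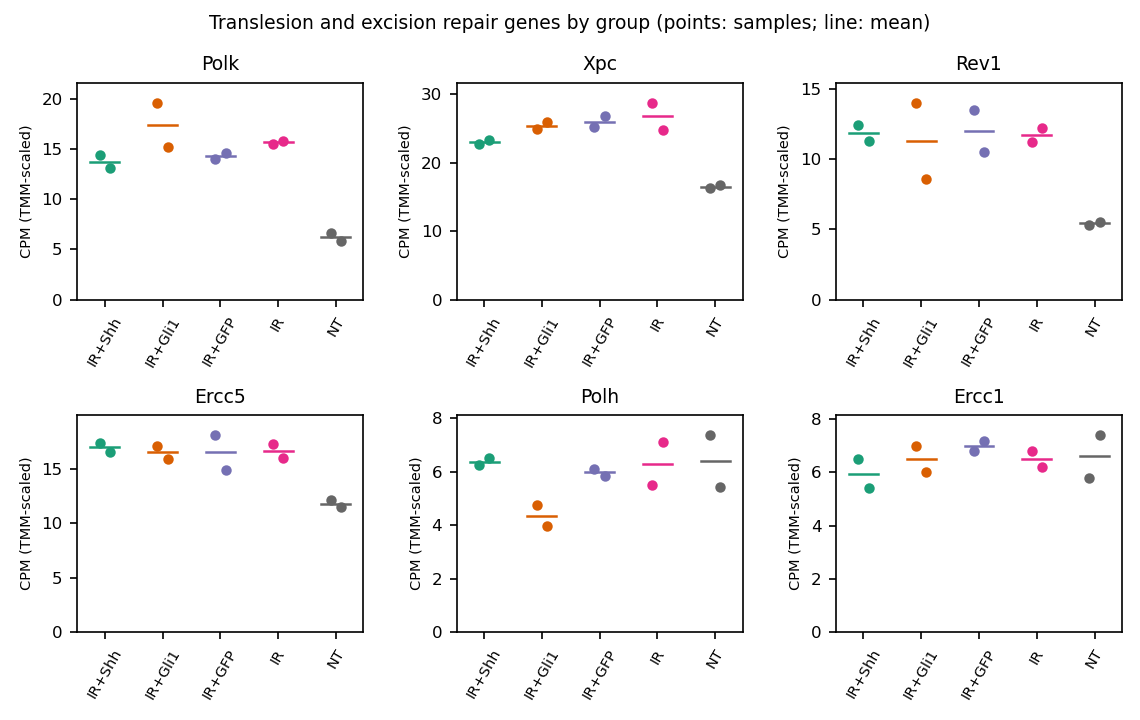
Levels of Polk, Xpc, Rev1, Ercc5, Polh and Ercc1 in TMM-scaled CPM by group; each point is 1 sample and each line the mean of 2. In Polk, Xpc, Rev1 and Ercc5 all 8 irradiated samples lie above both NT samples, which was so for 8.59% of all genes. These genes were named for their small p in IR against NT. In Polh and Ercc1 the irradiated samples overlap with NT.

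In IR+Gli1 against IR+GFP, 3 of the 90 wider genes rose (Exo1, Lig1 and Clspn) and 3 fell (Fancm, Wee1 and Rif1), while 8.23% of all genes rose and 5.71% fell. Lig1, the ligase of replication and long-patch repair, was at 7.75 and 6.08 CPM in IR+Gli1, against 4.26 and 4.37 CPM in IR+GFP (log2 fold change 0.69 ± 0.17, adjusted p = 0.0308). Rif1, which holds back resection of broken ends, was at 32.0 and 43.8 CPM in IR+Gli1, against 100 and 70.0 CPM in IR+GFP (-1.17 ± 0.25, adjusted p = 0.0204). Fancm, the motor that brings the Fanconi core complex to DNA, fell (-0.56 ± 0.15, adjusted p = 0.0343), opposite to Fanca of the same complex, and so did Wee1, a kinase that delays mitosis (-0.74 ± 0.20, adjusted p = 0.0366). With total-count scaling Fancm was at 0.23, Wee1 at 0.03 and Rif1 at -0.41 (adjusted p = 0.0729), so that none of these 3 was called lower. DESeq2 did not call Lig1 (adjusted p = 0.0692) or Fancm (0.0994), and without a low-count filter Fancm was lost (0.142). Against NT, 7 of the 90 rose and 7 fell in IR+Gli1 (12.3% and 11.4% of all genes), and 3 rose and 1 fell in IR+Shh (1.36% and 0.902%). None of the 90 passed in IR+GFP against IR or in IR+Shh against IR+GFP, where none of the 14300 genes passed. The calls of Lig1, Fancm and Wee1 were lost without any 1 sample of IR, IR+GFP or IR+Shh or without IR+Gli1 1-2, and that of Fancm also without IR+Gli1 3 (adjusted p 0.0504 to 0.208). That of Rif1 was lost without IR+GFP 1-2 (0.148) or IR+Gli1 1-2 (0.148).

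The exons of 14 of the 28 genes overlap those of another gene, for 13 of them on the opposite strand. The overlap reached 15.4% of the exon length in Rad54l (with Lrrc41), 15% in Trp53bp1 (with Tubgcp4) and 10.5% in Fanca (with Zfp276). The strand setting of the counting is not given in the sources used here. Reads in several genes were left out of the counts, so that without strand, reads in these overlaps may be missing from a gene's level. In GENCODE vM21 (GRCm38) Fancd2 lies on chromosome 6 (113531682 to 113597017), Fanca on chromosome 8 (123268300 to 123318576), Rad52 on chromosome 6 (119902698 to 119922828), Atm on chromosome 9 (53439149 to 53536740) and Lig4 on chromosome 8 (9969049 to 9977686). Xrcc6 lies on chromosome 15 (81987835 to 82040085) and Xrcc4 on chromosome 13 (89774027 to 90089608).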

How the data were processed

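Submandibular glands were flash frozen, total RNA was extracted with an RNeasy kit and a TruSeq RNA kit gave the libraries, per the labels' protocols. The authors deposited raw counts of reads per Ensembl gene, 1 table per library. Per the submitters' processing notes, the builds were GRCm38 and mm10 and the tools TopHat2 2.0.13, Bowtie 0.12.2, HTSeq 0.10.0 and DESeq2; strand setting and annotation release are not given in the sources used here. Rows that name no gene (reads in no gene, in several genes or with several alignments) held 6.98% to 13.9% of all reads of a library and were left out. Symbols and positions came from GENCODE vM21 (GRCm38), which named 96.0% of the 39179 genes.

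Libraries of a group with a mean chi-square per gene below 1, over genes with at least 20 reads in the pair, were combined by the rounded mean of their counts, which left 10 samples. Genes were filtered with filterByExpr and scaled with TMM. One edgeR 4.0.16 fit (R 4.3.3) with a mean per group, no covariates and robust two-sided quasi-likelihood tests had 5 residual degrees of freedom and a common biological coefficient of variation of 0.191. P-values were adjusted by Benjamini-Hochberg over 14300 genes, and passed below 0.05. A prior count of 2 was used only for the log2 levels behind the correlations of libraries given below, and was not set for the log2 fold changes. Counting error is part of the fit, and no interval of it is given. Of 30 same-numbered pairs of libraries between groups, 3 had deviations from the group means correlated above 0.1, and these were the 3 pairs of IR+Gli1 with IR+GFP (0.33 to 0.395), of which libraries 1 and 2 are near-identical. The numbers were taken to pair no other groups, and a fit pairing these 2 groups was added after seeing the data. Alternatives are in the closing section. The fit was tested on simulated data. All 28 genes are given by role, with values by sample for those that passed and those of smallest p. Of the wider lists, the 4 of smallest p per comparison are named, and of the p53, S phase and mitosis lists the 2 of smallest p. Exo1, Clspn and other wider genes that passed are named only or counted. The members and lists were chosen with earlier results of these data known.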

Additional observations from a re-analysis of the deposited data

How the results depend on the processing

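Most values kept their direction and their side of the threshold. Under 24 alternative settings, 3131 values were recomputed, of which 2777 kept both, 197 were no longer past the threshold, 121 came past it, 23 moved and 13 reversed. Total-count scaling gave all 13 reversals: 0.68 (Xrcc4), 0.71 (Msh6), 0.23 (Fancm) and 0.03 (Wee1) in IR+Gli1 against IR+GFP; -0.01 (Atm), -0.56 (Chek2) and -0.58 (Msh6) in IR+Shh against IR+Gli1; 0.28 (Atm), 0.36 (Xrcc6), 0.16 (Xrcc4), 0.00 (Lig4), 0.73 (Msh6) and 0.20 (Rad17) in IR+Gli1 against NT. These follow the shift of the median of all genes. Counts of the 28 genes that passed moved as follows. In IR+Gli1 against IR+GFP (2), there were 20 with total-count scaling, 1 with a limit of 1 CPM in 2 samples, 0 with DESeq2, 1 with limma-voom, 0 with the compared groups alone, 4 without IR+GFP 3 and IR+Gli1 3, 6 with IR and IR+GFP as 1 control, and 0 to 4 without 1 sample. In IR+Shh against IR+Gli1 (1), there were 2 with DESeq2 size factors, upper-quartile scaling, no filter, the 1 CPM limit or the deeper library of each pair, 15 with total-count scaling, 0 with the compared groups alone, 3 without IR+GFP 3 and IR+Gli1 3, and 0 to 2 without 1 sample. In IR+Gli1 against NT (5), there were 19 with total-count scaling, 0 with the compared groups alone and 1 to 6 without 1 sample. In IR+GFP against NT (0) there were 2 with no filter. The cause of these moves was not tested. Over all 14300 genes in IR+Gli1 against IR+GFP, 1177 rose and 816 fell. With total-count scaling 9660 rose and 89 fell, with DESeq2 1136 and 970, and with limma-voom 988 and 796. With IR and IR+GFP as 1 control 1856 rose and 1417 fell. With the compared groups alone, 1 of 13766 genes rose and 0 fell. With a limit of 1 CPM in 2 samples, 1145 of 12621 rose and 812 fell. Leaving out IR+GFP 3 and IR+Gli1 3 also raised the number over all genes, here and in IR+Shh against IR+Gli1. In IR+Shh against IR+Gli1, 84 rose and 8008 fell with total-count scaling, and 1 rose and 8 fell of 13823 with the compared groups alone. In IR+Gli1 against NT, 9259 rose and 226 fell with total-count scaling, and 519 rose and 342 fell of 14035 with the compared groups alone. In IR+GFP against NT with no filter, 694 of 22949 genes rose and 781 fell. Where a sample was left out of a group, the lone sample was assumed to vary like the other groups. Most of these fits called fewer of all genes than the main fit, in every comparison with calls.

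Fitting the 15 libraries separately treats near-identical libraries as replicates. It called 10 of the 28 in IR against NT, 16 in IR+Gli1 against IR+GFP, 14 in IR+Shh against IR+Gli1, 5 in IR+GFP against NT, 17 in IR+Gli1 against NT and 4 in IR+Shh against NT. Of all 14121 genes it called 1921 higher and 2233 lower in IR against NT. The counts were 3378 and 3140 in IR+Gli1 against IR+GFP, and 2871 and 3194 in IR+Shh against IR+Gli1. In IR+GFP against NT they were 1679 and 2001, in IR+Gli1 against NT 3805 and 3663, and in IR+Shh against NT 2067 and 2380. With the replicate number as a block, the replicate block fit called 9, 16, 13, 5, 17 and 5 in the same order. Of all 14121 genes it called 1908, 3359, 2899, 1679, 3818 and 2025 higher and 2140, 3136, 3193, 1899, 3631 and 2315 lower. A replicate block pairing the samples of IR+Gli1 and IR+GFP by number, chosen after seeing the data, called 2 of the 28, again Fancd2 (adjusted p = 0.0147) and Fanca (0.0166), and changed no call of a named gene in that comparison. The numbers share no known origin; the best correlation of 7 of the 15 libraries was with one of their own number. Fancd2, Fanca, Rad54l and Pole rest on few reads, and with 2 samples per group a difference that did not pass may still exist.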
